A study of Rattus norvegicus with 6 samples.

Results

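The nuclear-encoded subunits of the mitochondrial respiratory chain, complexes I to V, were compared between rat sensory ganglion cultures in high glucose and control cultures. Their genes were taken from the mRNA table by gene symbol (Nduf followed by a, b, c, s or v, Sdha to Sdhd, Uqcr, Cyc1, Cox4 to Cox8 and Atp5). The symbols matched 93 of 16551 rows and 90 genes, since 3 symbols stood on a second row and the row with the higher mean was kept. Of the 90, 79 encode subunits: 35 of complex I, 4 of complex II, 9 of complex III, 16 of complex IV and 15 of complex V. The other 11 match the symbols but encode no subunit, and are described apart. Ndufa4 was counted with complex IV, where its protein is known to belong. Ndufs6 and Ndufb1 were not analysed here, nor were mitochondrially encoded genes, and no row of the lncRNA table carried a matching symbol.

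The mitochondrial respiratory chain carries electrons from NADH and succinate to oxygen and stores the energy as a proton gradient. Complex I (NADH dehydrogenase) and complex II (succinate dehydrogenase) pass electrons to coenzyme Q, complex III (the cytochrome bc1 complex) passes them on to cytochrome c, complex IV (cytochrome c oxidase) hands them to oxygen, and complex V (ATP synthase) uses the gradient to make ATP. Mitochondrial DNA encodes a few central subunits of complexes I, III, IV and V, and the nucleus encodes the rest and all of complex II. Sensory neurons and the glia around them depend on the chain along their long axons, and its decline under high glucose is a long-studied question in diabetic neuropathy.

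The samples were primary rat dorsal root ganglion cells (the cells of the sensory ganglia beside the spinal cord), 3 given medium of 45 mmol/L glucose over 48 h (labelled DM, the group taken to be the high-glucose one) and 3 control samples, whose glucose level the labels do not give. The labels give no genotype, strain, sex or age of the rats and no osmotic control, and their growth protocol mentions paraformaldehyde fixation without saying whether it touched the RNA samples. The 3 samples of a group are called duplicates, with no word on whether they were separate cultures, so each p-value below reflects no more than the scatter of these 6 samples, technical scatter included. The samples held 28780612, 29904796 and 33108451 mRNA reads in high glucose, against 28949744, 32181594 and 30657772 in control. Values below are CPM (reads scaled to library size), from the log2 CPM the authors deposited. A gene passed where limma's test gave an adjusted p under 0.05 (Benjamini-Hochberg over all 16551 genes). Each log2 fold change is high glucose minus control with its standard error (SE), on 3 samples per group.

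The label of nerve cells was checked against markers of the cell types in a ganglion. The 7 measured fibroblast markers summed to 50700 to 53200 CPM in high glucose and 54000 to 56200 CPM in control (5 higher, 1 lower), and 8 mural and smooth muscle markers to 8310 to 8380 CPM in high glucose and 14800 to 14900 CPM in control (1 higher, 6 lower). Most of the fibroblast sum came from 2 collagens. Col1a1, the fibroblast marker that fell, had means of 26200 CPM in high glucose and 34800 CPM in control. Col3a1, which rose, had 24300 and 20000 CPM. The 12 pan-neuronal markers summed to 76.5 to 78.9 CPM in high glucose, against 116 to 120 CPM in control, with 8 lower and 1 higher, and Rbfox3, which encodes the neuronal nuclear protein NeuN, had no more than 9 reads over the high-glucose samples and 6 over the control samples. Within the neuronal sum Uchl1, which fell, had means of 48.0 CPM in high glucose and 58.8 CPM in control. Syt1, the neuronal marker that rose, had 14.0 and 7.6 CPM. The 10 markers of Schwann cells and satellite glia summed to 308 to 338 CPM in high glucose and 510 to 535 CPM in control (9 lower, none higher). Of 7 macrophage markers 2 were higher and 1 lower, none of 4 endothelial markers passed, and no marker was at 0 in a whole group. These sums are shares of reads, not corrected for transcript length, and are compared only between groups. Beside the counts of markers, 25.5% of all 16551 genes passed as lower and 24.9% as higher. In bulk RNA fewer cells of a type and less RNA per cell cannot be told apart. Markers of several cell types were read, so the subunit values are those of a mixed culture and cannot be assigned to neurons. The part of these shifts in the subunit values was not tested.

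Most subunit genes differed little between the groups. Of the 79, 25 fell and 5 rose, while 49 did not pass, and the median log2 fold change was -0.046. That is 38.0% that passed, where 50.5% of all genes passed, 25.5% lower and 24.9% higher, with a median of 0.012. Among genes at a mean of at least 4 log2 CPM, which are read more precisely, 69.1% passed, and of the 67 subunits at that level 29 did (43.3%). The 3 samples of one group lay wholly above or below the 3 of the other in 36 subunits (45.6%), against 57.6% of all genes. The changes were small: 24 of the 30 subunits that passed changed by less than 1.2-fold, and the median size of change over all 79 was 0.10 on the log2 scale, against 0.28 over all genes. Only Cox6a2 and Cox8b had a fold change of 2 or more, and Cox8b did not pass.

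**Figure D1:**
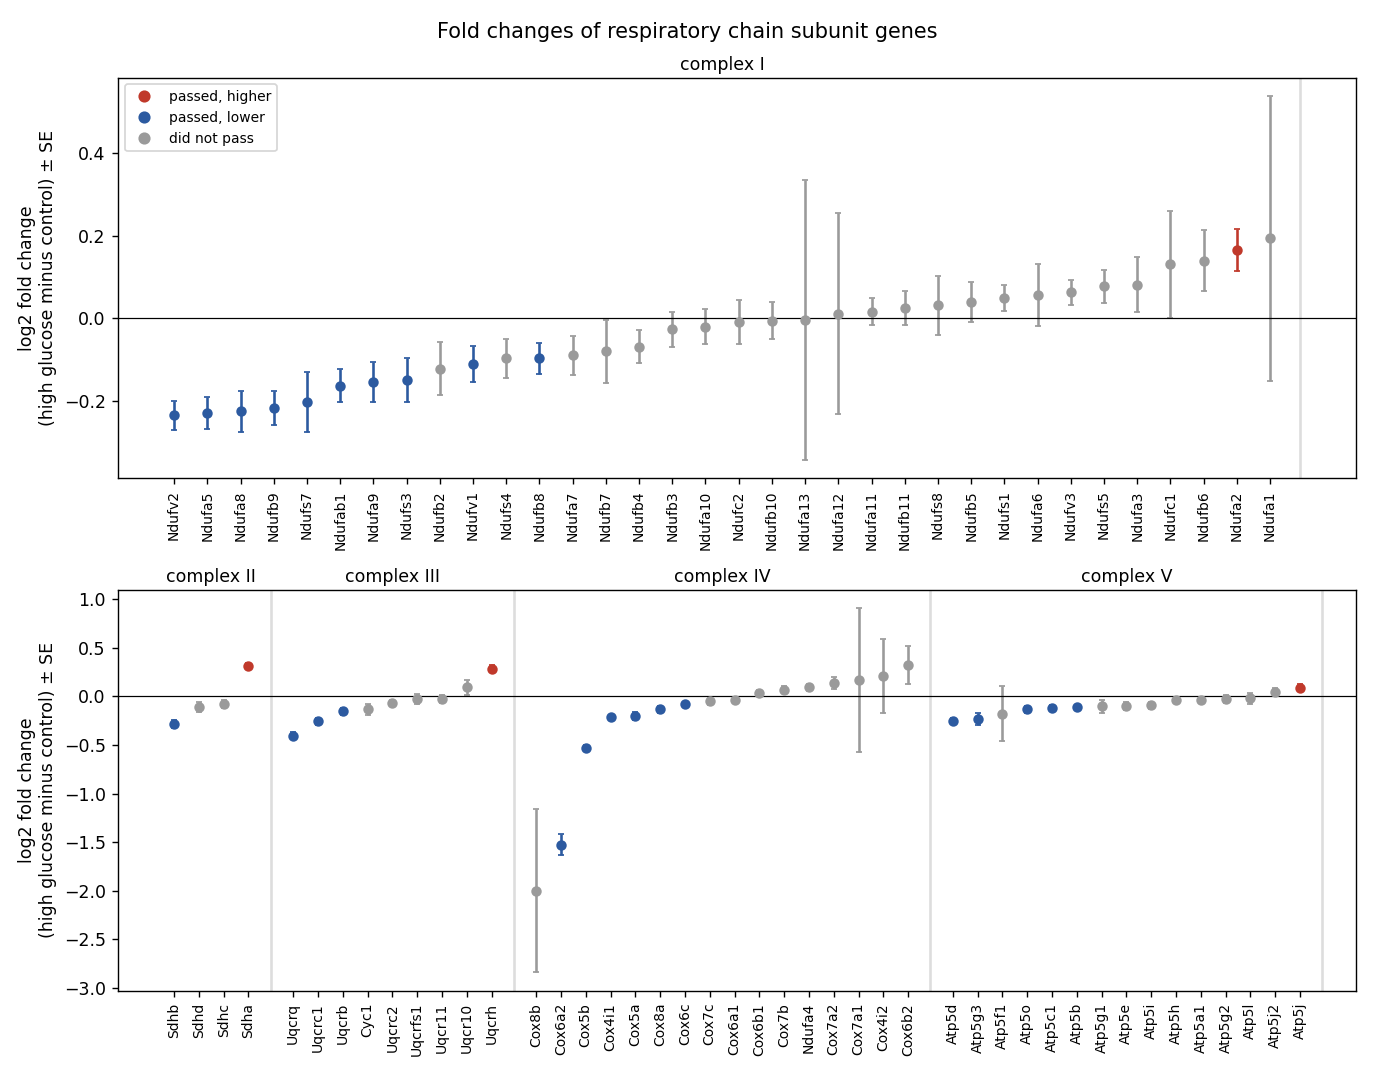
Log2 fold change (high glucose minus control) of 78 of the 79 subunit genes with its SE, on 3 samples per group, sorted within complex I (top) and complexes II to V (bottom, on a wider scale). Red and blue points passed the limma test (higher and lower) and grey points did not. Most values lie within 0.25 of 0, with Cox5b, Cox6a2 and Uqcrq lowest among those that passed and Sdha and Uqcrh highest.

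The size of these changes is close to that of the authors' scaling, so the direction of the smallest ones rests on it. Scaling factors were 1.03 to 1.05 in high glucose and 0.959 to 0.964 in control. With plain library totals in their place, the median of all genes moved up by 0.114, 10 subunits were lower and 21 were higher, and their median was 0.067. Relative to the median of all genes, the subunit median was -0.058 under both scalings. As a share of all mRNA reads, the 79 subunits together took 0.476% ± 0.0076 in high glucose and 0.464% ± 0.0070 in control (SD, n = 3 each), and the groups overlapped. Shares, here and by complex, are of plain library totals, without the scaling factors, so they rest on that choice. Under the deposited scaling the median log2 fold changes of complexes I, II and III were below 0 (-0.0094, -0.095 and -0.065). By complex, the share was higher in high glucose without overlap for complexes I, II and III. Complex I took 0.135% to 0.137%, against 0.128% to 0.131% in control. Complex II took 0.0302% to 0.0303%, against 0.0262% to 0.0286%, and complex III 0.0549% to 0.0565%, against 0.0527% to 0.0544%. The higher shares of complexes II and III rested on 1 gene each. Sdha had 12647 reads over the high-glucose samples and 9433 over the control samples, and Uqcrh 10559 and 7996. By the deposited scaling 3 of 4 subunits of complex II and 7 of 9 of complex III were below 0, as were 8042 of all 16551 genes. The groups overlapped for complex IV (0.0797% to 0.0816% in high glucose and 0.0815% to 0.0822% in control) and complex V (0.170% to 0.179% in high glucose and 0.169% to 0.175% in control). The 12 subunits that passed in the same direction under all 15 alternative settings were Ndufv2, Ndufa5, Ndufb9, Sdhb, Uqcrc1, Uqcrq, Cox4i1, Cox5b, Cox6a2 and Atp5d, all lower, and Sdha and Uqcrh, both higher. These 12 carry the account below. How many of all 16551 genes held under the same settings was not counted, so no share stands beside the 12.

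**Figure D2:**
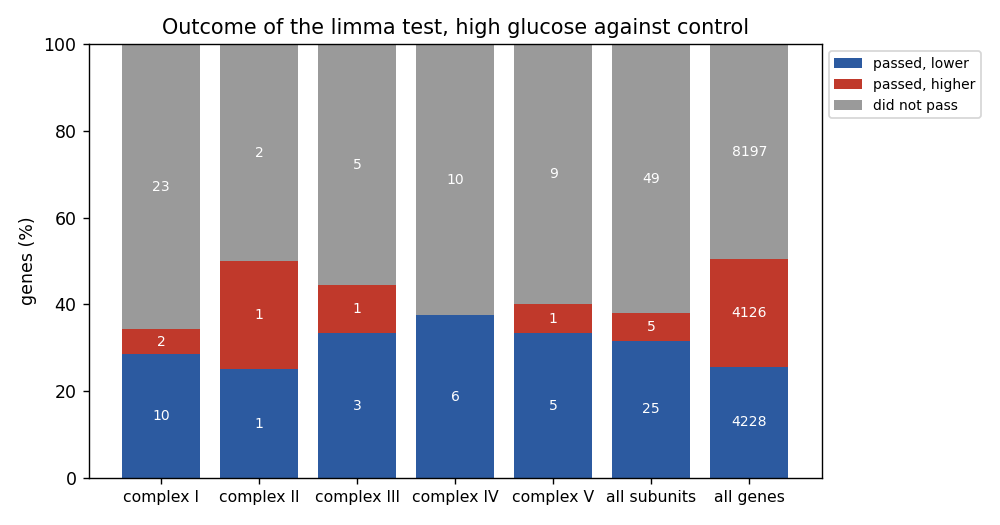
Share of genes (%) that passed lower (blue), passed higher (red) or did not pass (grey) in the limma test, by complex, over all 79 subunits and over all 16551 genes, with the number of genes in each segment. The grey share is 49 of 79 for all subunits and 8197 of 16551 for all genes, and complex IV has no gene that passed higher.

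Complex I had the median nearest to 0 under the deposited scaling. Of its 35 subunits, 10 fell and 2 rose, while 23 did not pass. Their median log2 fold change was -0.0094 and their range -0.23 to 0.19. With plain library totals 3 fell and 11 rose, and without high glucose 3 only 5 fell. The 7 core subunits hold the flavin, the iron-sulfur clusters and the site where coenzyme Q is reduced. Ndufv2, a core subunit with an iron-sulfur cluster, had 72.6, 75.3 and 72.4 CPM in high glucose, against 82.9, 89.9 and 86.4 CPM in control. All 3 high-glucose samples lay below all 3 control samples (-0.23 ± 0.03, adjusted p = 7.42e-05). Ndufv1, which binds NADH through the flavin (-0.11 ± 0.04), and Ndufs3 and Ndufs7 near the coenzyme Q site (-0.15 ± 0.05 and -0.20 ± 0.07) also passed as lower, but none of these 3 held with plain library totals, where Ndufv1 stood at 0.0032. Their calls were also lost in several of the fits with a sample left out. Ndufv1 did not pass without high glucose 1 or 3 or control 2 or 3 (adjusted p = 0.126 to 0.153). Ndufs3 did not without high glucose 1 or 3 or control 1 or 3 (0.0729 to 0.131), nor Ndufs7 without high glucose 2 or 3 or control 1 or 2 (0.0645 to 0.139). The values stayed below 0 in these fits, at -0.10 to -0.087 for Ndufv1, -0.15 to -0.11 for Ndufs3 and -0.21 to -0.13 for Ndufs7. Ndufs1, another core subunit, and Ndufs8 did not pass (0.05 ± 0.03 and 0.03 ± 0.07), and Ndufs8 was below 0 without high glucose 1 or control 1.

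The 28 accessory subunits, which surround the core and stabilise it, mostly did not pass: 6 fell and 1 rose out of 28, and the median was -0.0076. Ndufa5, an accessory subunit of the Q module, had 36.2, 38.7 and 37.2 CPM in high glucose, against 43.4, 43.6 and 44.3 CPM in control (-0.23 ± 0.04, adjusted p = 0.000228). Ndufb9, of the distal membrane arm, had 60.2, 59.99 and 64.98 CPM in high glucose, against 74.7, 69.3 and 71.1 CPM in control (-0.22 ± 0.04, adjusted p = 0.000482). In neither gene did the groups overlap. Ndufa8 and Ndufab1, the mitochondrial acyl carrier protein, passed as lower as well (-0.22 ± 0.05 and -0.16 ± 0.04), yet not with plain library totals. Ndufa9 (-0.15 ± 0.05) and Ndufb8 (-0.10 ± 0.04) passed as lower, and neither did with plain library totals. Ndufa9 did not pass without high glucose 3 or control 3 (adjusted p = 0.0787 and 0.0739), nor Ndufb8 without high glucose 2 or 3 or control 2 or 3 (0.0794 to 0.166). Ndufa2, of the NADH-oxidising module, was the accessory subunit that rose, with 22.5, 23.6 and 21.6 CPM in high glucose, against 20.04, 20.01 and 20.3 CPM in control (0.16 ± 0.05, adjusted p = 0.0166, and 0.0756 without high glucose 2). Ndufa1 and Ndufa13, which cells need for a working complex I, had only 37 and 80 reads over the high-glucose samples and 30 and 80 over the control samples, so their rows give no usable direction. Ndufa12 was uneven within both groups, at 292, 154 and 159 reads in high glucose and 223, 171 and 145 in control.

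Complex II joins the citric acid cycle to the chain, and its subunits moved apart. Sdha, the flavoprotein that oxidises succinate, had 134, 130.0 and 133 CPM in high glucose, against 101, 108 and 111 CPM in control, a rise of 1.24-fold (0.31 ± 0.03, adjusted p = 4.89e-06). Sdhb, the iron-sulfur subunit that takes the electrons from Sdha, had 61.04, 58.5 and 59.0 CPM in high glucose, against 67.6, 74.3 and 75.1 CPM in control, 1.21-fold lower (-0.28 ± 0.04, adjusted p = 6.64e-05). The groups did not overlap for either gene. The membrane anchors Sdhc and Sdhd did not pass (-0.08 ± 0.04 and -0.11 ± 0.05, adjusted p = 0.116 and 0.0746). The ratio of Sdha to Sdhb within a sample, a measure chosen after their values were seen, does not depend on scaling. It was 2.20, 2.22 and 2.26 in high glucose and 1.49, 1.46 and 1.48 in control, 1.51-fold higher in high glucose, given as a description with no test. The 250 bases before the start of each gene's transcript in the table used, from RefSeq on the GRCr8 build, are shown because the genes encode partners of the same enzyme and went in opposite directions. Capitals mark matches to short motifs of factors known for respiratory chain genes: NRF1 (GCGCATGC), ETS factors such as GABP (CCGGAAG), YY1 (AAGATGG), ERR (AAGGTCA) and SP1 (GGGCGG), on either strand.
Sdha, chr1:30764303-30764552, plus strand: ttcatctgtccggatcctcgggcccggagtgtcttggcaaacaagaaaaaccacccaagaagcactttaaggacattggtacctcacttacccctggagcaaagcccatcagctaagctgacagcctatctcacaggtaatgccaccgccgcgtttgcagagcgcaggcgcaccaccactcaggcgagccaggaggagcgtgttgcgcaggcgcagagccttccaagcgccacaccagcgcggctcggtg
Sdhb, chr5:158547684-158547933, plus strand: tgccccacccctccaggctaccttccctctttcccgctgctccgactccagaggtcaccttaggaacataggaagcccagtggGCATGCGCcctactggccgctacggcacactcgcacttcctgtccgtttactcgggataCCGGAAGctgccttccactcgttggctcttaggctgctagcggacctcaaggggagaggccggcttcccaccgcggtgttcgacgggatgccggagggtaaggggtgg
The Sdhb window held a match to NRF1, from 167 to 160 bases before the start, and one to ETS, from 108 to 102 bases before it, while the Sdha window held no match to these letters. Only these exact letters were searched, so variant forms of a motif were not marked. A window without a match, such as that of Sdha, may still hold such forms.

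Complex III showed the same kind of split. Of its 9 subunits, 3 fell and 1 rose, while 5 did not pass, and the median was -0.065. Uqcrq, a small subunit next to cytochrome b, had 61.8, 62.7 and 59.1 CPM in high glucose, against 77.9, 81.5 and 84.2 CPM in control. It was 1.33-fold lower (-0.41 ± 0.04, adjusted p = 6.48e-07). Uqcrh, the hinge protein at the docking site of cytochrome c, had 107.5, 107.4 and 116 CPM in high glucose, against 90.03, 93.98 and 87.7 CPM in control, a rise of 1.22-fold (0.29 ± 0.04, adjusted p = 2.19e-05). The groups were apart for both genes. The ratio of Uqcrh to Uqcrq within a sample was 1.74, 1.71 and 1.97 in high glucose and 1.16, 1.15 and 1.04 in control, 1.62-fold higher in high glucose, again as a description. Uqcrc1, a large core protein that faces the matrix, had 60.5, 63.5 and 59.03 CPM in high glucose, against 70.2, 75.4 and 72.7 CPM in control (-0.25 ± 0.04, adjusted p = 7.19e-05). Its partner Uqcrc2 did not pass (-0.06 ± 0.03, adjusted p = 0.0612). The catalytic subunits did not pass either: cytochrome c1 (Cyc1) had a value of -0.13 ± 0.06 (adjusted p = 0.0715) and the Rieske iron-sulfur protein (Uqcrfs1) one of -0.03 ± 0.05 that was above 0 with plain library totals, after quantile normalization and without high glucose 1. Uqcrb was lower on both rows that carry its symbol (-0.15 ± 0.04 and -0.18 ± 0.05), which may share reads, and its main row did not pass with plain library totals. The windows before the starts of Uqcrh and Uqcrq, the pair that went apart most, follow.
Uqcrh, chr5:134790883-134791132, minus strand: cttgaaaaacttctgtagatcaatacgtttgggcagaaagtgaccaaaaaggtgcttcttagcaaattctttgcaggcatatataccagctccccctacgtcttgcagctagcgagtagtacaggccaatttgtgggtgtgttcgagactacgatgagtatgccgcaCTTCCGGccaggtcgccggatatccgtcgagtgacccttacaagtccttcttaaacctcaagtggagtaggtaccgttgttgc
Uqcrq, chr10:38089979-38090228, minus strand: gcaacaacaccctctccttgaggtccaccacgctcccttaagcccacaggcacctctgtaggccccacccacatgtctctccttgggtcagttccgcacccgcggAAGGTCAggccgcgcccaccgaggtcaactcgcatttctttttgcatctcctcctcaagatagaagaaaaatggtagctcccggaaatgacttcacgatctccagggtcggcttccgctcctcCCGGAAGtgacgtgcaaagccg
Both held a match to ETS, from 83 to 77 bases before the start in Uqcrh and from 22 to 16 in Uqcrq, and Uqcrq also held one to ERR, from 145 to 139 bases before the start.

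**Figure D3:**
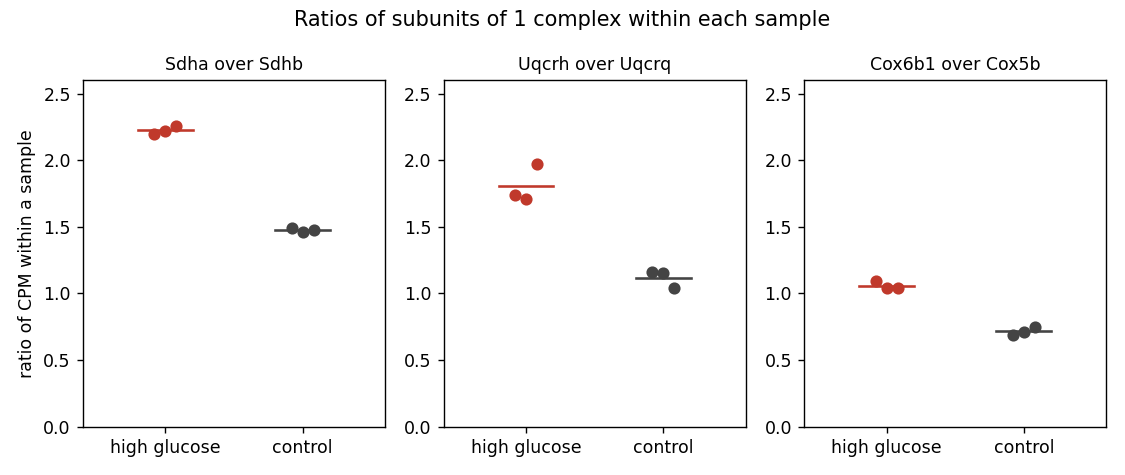
Ratio of the CPM values of subunit pairs of complexes II, III and IV within each sample (points) with the mean of the 3 samples (line), high glucose in red and control in dark grey. The groups do not overlap in any of the 3 pairs, and the ratio of Sdha to Sdhb lies at 2.20 to 2.26 in high glucose, against 1.46 to 1.49 in control. The pairs were chosen after values were seen, so the gap between groups is a description with no test.

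Complex IV held the largest changes of the chain. Of its 16 subunit genes, 6 fell and none rose, while 10 did not pass, and the median was -0.044. With plain library totals 3 fell and 4 rose. Cox5b, the zinc-binding subunit on the matrix side, had 79.4, 83.2 and 83.4 CPM in high glucose, against 121.9, 120.5 and 113.1 CPM in control, 1.44-fold lower (-0.53 ± 0.03, adjusted p = 2.32e-08). Cox4i1, the ubiquitous form of the subunit 4 that takes part in control by ATP, had 148, 153 and 151 CPM in high glucose, against 172.2, 172.1 and 179.6 CPM in control (-0.21 ± 0.03, adjusted p = 1.44e-05). Cox5a, the neighbour of Cox4 in the complex, had a value of -0.20 ± 0.04 (adjusted p = 0.000604), and Cox8a and Cox6c passed as lower by -0.13 ± 0.04 and -0.08 ± 0.03. Cox5a, Cox8a and Cox6c did not pass with plain library totals, nor did Cox6c without high glucose 1 or 2 or control 2 (adjusted p = 0.0618 to 0.179). Other ubiquitous subunits did not pass, among them Cox6b1 (0.03 ± 0.03), Cox6a1 (-0.04 ± 0.03, and 0.07 with plain library totals), Cox7a2 (0.14 ± 0.06, adjusted p = 0.0762) and Ndufa4 (0.09 ± 0.04, adjusted p = 0.0551). The ratio of Cox6b1 to Cox5b within a sample was 1.09, 1.04 and 1.04 in high glucose, against 0.689, 0.707 and 0.748 in control, a pair chosen for this difference and given as a description.

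Several subunits of complex IV exist in isoforms that are known for restricted expression. Cox6a2, the heart and skeletal muscle form of subunit 6a, had 3.35, 3.24 and 2.92 CPM in high glucose, against 9.63, 8.40 and 9.35 CPM in control, on 300 reads against 802. It was 2.88-fold lower (-1.53 ± 0.11, adjusted p = 5.32e-08), with no overlap, while the ubiquitous form Cox6a1 had 112, 113 and 113 CPM in high glucose and 117, 112 and 119 CPM in control. Cox8b, another muscle form, had 2, 0 and 1 reads in high glucose and 1, 8 and 7 in control, too few for a fold change, and it did not pass (adjusted p = 0.0633). Cox7a1, also a muscle form, was at 6 reads over the high-glucose samples and 4 over the control samples. Cox4i2, known from lung, and Cox6b2, known from testis, did not pass (0.21 ± 0.38 and 0.33 ± 0.20). Muscle markers went both ways: of 8 measured, chosen after the fall of Cox6a2 was seen, 2 were lower, among them skeletal actin Acta1 (-1.48 ± 0.05), and 2 were higher, among them the troponin Tnnt2 (2.37 ± 0.08), with summed levels of 76.6 to 81.7 CPM in high glucose and 54.0 to 58.7 CPM in control. Tnnt2 set the higher sum (56.7 CPM in high glucose, 11.1 in control), while Acta1 had 13.2 and 36.7 CPM. The median log2 fold change of the 8 was -1.1, with some members at few reads. Among these, Ckm had 1 read in high glucose and 8 in control, and Actn2 had 2 and 14. Of 8 mural and smooth muscle markers 6 were lower and 1 was higher. The part of these cells in the Cox6a2 value was not tested. The windows before the starts of Cox5b and Cox6a2, with the largest falls of the chain, follow.
Cox5b, chr9:46417587-46417836, plus strand: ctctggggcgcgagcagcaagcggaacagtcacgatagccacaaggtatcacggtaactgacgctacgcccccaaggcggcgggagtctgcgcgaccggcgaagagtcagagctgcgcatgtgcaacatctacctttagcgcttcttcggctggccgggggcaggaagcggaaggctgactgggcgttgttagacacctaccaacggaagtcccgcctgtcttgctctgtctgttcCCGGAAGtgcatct
Cox6a2, chr1:192219717-192219966, minus strand: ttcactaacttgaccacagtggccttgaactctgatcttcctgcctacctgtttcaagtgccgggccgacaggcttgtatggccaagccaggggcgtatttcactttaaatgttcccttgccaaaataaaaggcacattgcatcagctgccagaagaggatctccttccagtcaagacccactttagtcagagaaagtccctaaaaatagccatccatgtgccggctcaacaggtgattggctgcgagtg
The Cox5b window held a match to ETS, from 14 to 8 bases before the start, and the Cox6a2 window held no match to the letters searched.

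Complex V had small changes, with 13 of 15 values below 0 under the deposited scaling. Below 0 were also 8042 of all 16551 genes, and 4110 of the 7482 genes at a mean of at least 4 log2 CPM. Of its 15 subunit genes, 5 fell and 1 rose, while 9 did not pass, and the median was -0.10. With plain library totals 1 fell and 3 rose, and the median was 0.014. Atp5d, the delta subunit of the rotor stalk, had 97.1, 97.1 and 96.5 CPM in high glucose, against 118, 114 and 113 CPM in control (-0.25 ± 0.03, adjusted p = 3.73e-06), and was the member of the complex whose fall held under every setting. The catalytic beta subunit Atp5b had 543, 559 and 532 CPM in high glucose, against 580.4, 586.4 and 598.4 CPM in control (-0.11 ± 0.02, adjusted p = 0.000708). No samples overlapped, yet the value was 0.0019 with plain library totals and 0.035 after quantile normalization, so its direction rested on the scaling. Its partner Atp5a1, the alpha subunit, did not pass (-0.04 ± 0.02), and the gamma subunit Atp5c1 passed as lower (-0.12 ± 0.03) and stood at -0.0018 with plain library totals (and did not pass without high glucose 1, adjusted p = 0.0538). Atp5o, the subunit that joins the stator to the head, fell by the deposited scaling (-0.13 ± 0.04), and not with plain library totals. Of the 3 genes for the c subunit of the membrane ring, whose mature proteins are the same, Atp5g3 passed as lower (-0.23 ± 0.06, adjusted p = 0.00614, and 0.138 with plain library totals), with groups that overlapped, and Atp5g1 and Atp5g2 did not pass (-0.10 ± 0.07 and -0.03 ± 0.04). Atp5j, coupling factor 6, was the member that rose (0.09 ± 0.04, adjusted p = 0.0493), a call that was lost under 9 of the 15 alternatives, among them those without any 1 sample other than high glucose 1 (adjusted p = 0.0563 to 0.141). Atp5f1, the b subunit of the stator, had only 120 reads in high glucose and 124 in control and gives no usable direction. How reads that match near-identical copies of a gene were counted is not given in the sources used here, so the few reads of Atp5f1, Ndufa1 and Ndufa13, ubiquitous subunits, cannot be read as low expression.

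**Figure D4:**
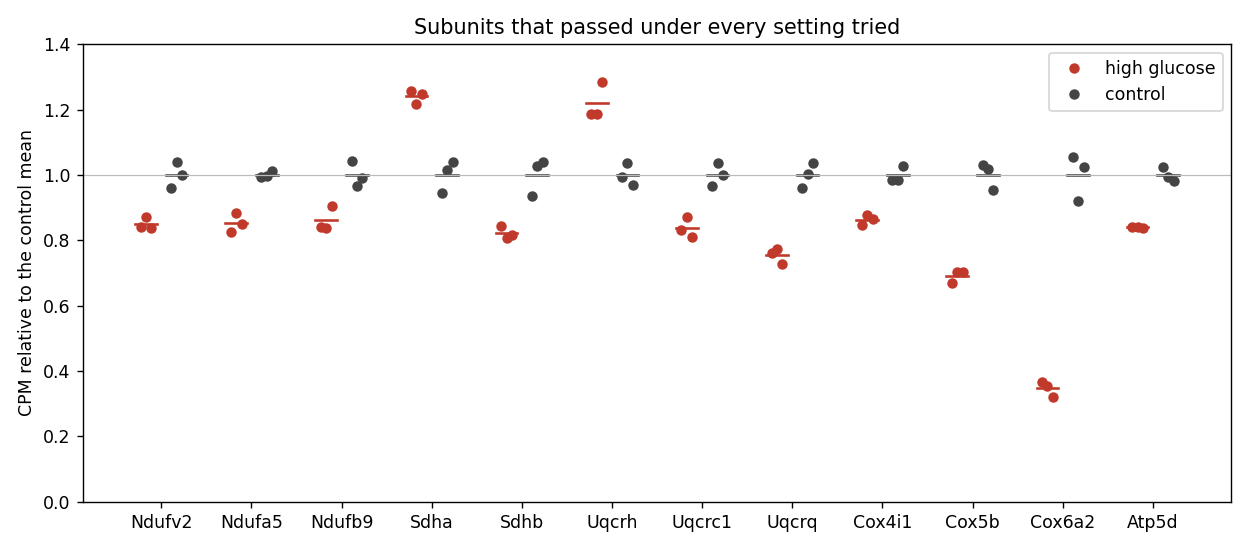
CPM of each sample divided by the control mean of its gene, for the 12 subunits that passed in 1 direction under all 15 alternatives, high glucose in red to the left of control in dark grey, with the mean of 3 samples as a line. Red points lie below every dark point for 10 genes and above them for Sdha and Uqcrh, and Cox6a2 lies lowest. The genes were chosen by their calls on these samples, so the gap between groups is a description.

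The promoters of all subunits were searched for the same motifs. Of the 79 subunits, 69 had a window of 300 bases in the RefSeq table (250 before and 50 after the start, GRCr8). An ETS match stood in 29.0% of these windows and in 10.7% of the windows of 21851 protein-coding genes, a YY1 match in 24.6% and 7.29%, an ERR match in 14.5% and 3.78%, and an NRF1 match in 11.6% and 3.11%. An SP1 match stood in 37.7% and 41.8%. The 21 subunits that fell and had a window held an ETS match in 5 cases, YY1 in 6, ERR in 3, NRF1 in 3 and SP1 in 5, and the 44 that did not pass held them in 12, 9, 7, 5 and 20 cases, in the same order, differences that were not tested. The 4 that rose and had a window held ETS in 3 cases, YY1 in 2 and SP1 in 1. Each motif was searched alone on both strands, so that matches of different motifs could overlap, and a match of letters is a description, not a binding site. In Sdhb, Uqcrq, Cox5b and Cox6a2 the annotated gene begins upstream of the start used, so that some or all of the bases shown also lie within the annotated gene.

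Of the 11 genes that share the symbols without encoding subunits, 7 are assembly factors of complex I. Among these 3 fell and 1 rose. Ndufaf5 had 11.05, 10.1 and 10.9 CPM in high glucose, against 12.4, 13.3 and 13.9 CPM in control (-0.30 ± 0.07, adjusted p = 0.00305), and Ndufaf4 (-0.24 ± 0.06) and Ndufaf2 (-0.41 ± 0.15, adjusted p = 0.0328) passed as lower too, though not with plain library totals. Ndufaf2 also lost its call without high glucose 1, high glucose 2 or control 2 (adjusted p = 0.0524, 0.14 and 0.136). Ndufaf1 rose, with 17.8, 18.02 and 20.5 CPM in high glucose, against 15.03, 15.06 and 15.6 CPM in control (0.30 ± 0.06, adjusted p = 0.00163). Ndufa4l2, a paralogue of Ndufa4 known for induction by the hypoxia factor HIF-1, was 1.82-fold lower, with 32, 25 and 44 reads in the high-glucose samples and 42, 69 and 59 in the control samples (-0.86 ± 0.24, adjusted p = 0.00815). Cox7a2l, which links complexes III and IV into supercomplexes, had a value of -0.17 ± 0.03 (adjusted p = 0.000195) and did not pass with plain library totals. Atp5s and Atp5sl did not pass.

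Other genes of the pathway were counted in lists. For comparison with the counts of each list, 50.5% of all genes passed, 25.5% lower and 24.9% higher. Of the assembly factors of complex I 50.0% passed, and of those of complexes II to V 37.5%, so neither list stood above that share. Of 14 measured assembly factors of complex I, which include those above, 4 fell and 3 rose, or 2 and 6 with plain library totals. Foxred1 (0.45 ± 0.06) rose most, Acad9 rose by 0.24 ± 0.08 (not without control 1, high glucose 2 or high glucose 3, adjusted p = 0.0654, 0.0704 and 0.0787), and Ecsit fell (-0.33 ± 0.05). Of 32 measured assembly factors of complexes II to V, 7 fell and 5 rose, or 4 and 10 with plain library totals. The copper chaperone Cox17, which supplies complex IV, had 12.5, 11.4 and 12.7 CPM in high glucose, against 17.98, 19.8 and 17.7 CPM in control, 1.51-fold lower (-0.60 ± 0.07, adjusted p = 6.08e-06), and Lrpprc, which stabilises mitochondrial mRNAs, was 1.31-fold lower (-0.38 ± 0.03). Lyrm7, which helps insert the Rieske protein, had a value of -0.48 ± 0.10. Uqcc3 (0.39 ± 0.07) and Tmem70 (0.30 ± 0.07), factors of complexes III and V, and Sdhaf2 (0.17 ± 0.04), which helps attach the flavin to Sdha, rose.

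Between the complexes, cytochrome c (Cycs) was 1.33-fold lower, with 7.75, 8.70 and 8.63 CPM in high glucose, against 10.3, 12.3 and 10.8 CPM in control (-0.41 ± 0.09, adjusted p = 0.00141). Of the 13 genes of coenzyme Q synthesis and handling, Coq8a (0.65 ± 0.14), Coq7 (0.46 ± 0.12) and Coq9 (0.16 ± 0.04) rose and none fell. Of 6 genes for other routes of electron entry and for uncoupling, 4 fell and 1 rose, or 4 and 2 with plain library totals. Etfb, of the electron carrier for fatty acid oxidation, was 1.66-fold lower (-0.73 ± 0.05), the mitochondrial glycerol phosphate dehydrogenase Gpd2 1.56-fold lower (-0.64 ± 0.06) and the carrier Ucp2 fell too (-0.68 ± 0.06), while Etfdh, which passes electrons from Etfa and Etfb to coenzyme Q, rose 1.32-fold (0.41 ± 0.05).

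Regulators of the chain gave no common direction, with 3 of 14 lower and 2 higher, or 2 and 5 with plain library totals. By the deposited scaling that is 35.7% that passed, against 50.5% of all genes. The coactivator Ppargc1b had 2.05, 2.70 and 2.92 CPM in high glucose, against 6.07, 5.71 and 5.67 CPM in control, 2.30-fold lower (-1.20 ± 0.14, adjusted p = 1.13e-05), and its relative Pprc1 had a value of -0.27 ± 0.04. Gabpb1, a subunit of the ETS factor GABP, passed as lower (-0.21 ± 0.05, and not with plain library totals). Polg2, of the mitochondrial DNA polymerase, rose (0.53 ± 0.12), and Nrf1 passed narrowly as higher (0.10 ± 0.04, adjusted p = 0.0442), a call lost without any of the 3 control samples, high glucose 1 or high glucose 2 (adjusted p = 0.0622 to 0.163). Ppargc1a, the best known of these coactivators, had 44 reads over the high-glucose samples and 24 over the control samples and did not pass (0.72 ± 0.43, adjusted p = 0.184), and Tfam, which packages mitochondrial DNA, did not pass (-0.04 ± 0.06).

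A short list of abundant mitochondrial proteins outside the chain (channels, import receptors, chaperones and the like) held 12 measured genes. Of these 11 fell, none rose and the median was -0.25. Of the 7482 genes at a mean of at least 4 log2 CPM, 2899 passed as lower and 2269 as higher (69.1% in either direction). With plain library totals 7 fell and none rose. Hspa9, the mitochondrial heat shock protein that pulls in imported proteins, had 307, 294 and 287 CPM in high glucose, against 455, 461 and 473 CPM in control, 1.57-fold lower (-0.65 ± 0.03, adjusted p = 1.73e-10). The outer membrane channel Vdac2 and the chaperonin Hspd1 were 1.30-fold and 1.26-fold lower (-0.38 ± 0.03 and -0.34 ± 0.03). Of the 74 mitochondrial ribosomal protein genes, 22 fell and 14 rose (median -0.057), or 14 and 21 with plain library totals (median 0.057). The difference between these lists and the subunits was not tested.

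**Figure D5:**
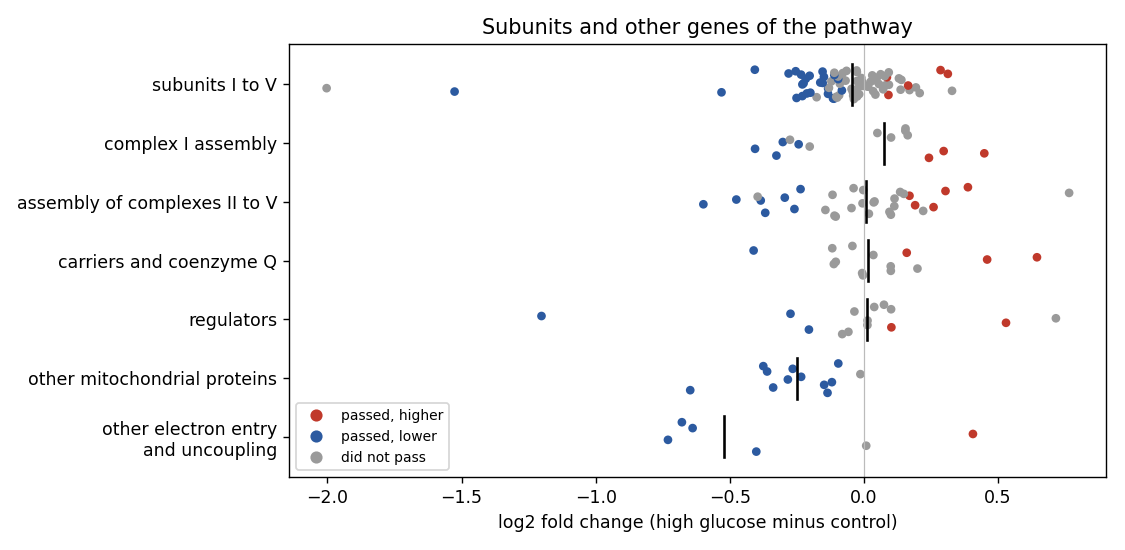
Log2 fold change (high glucose minus control) of the 79 subunits and of 6 lists of other genes of the pathway, each point a gene and each black line the median of a list. Red and blue points passed the limma test (higher and lower) and grey points did not, and the list of other mitochondrial proteins has 11 of 12 points that passed as lower.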

How the data were processed

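The mRNA table of a series of rat dorsal root ganglion cultures was used, with 3 high-glucose and 3 control samples grouped by title. The authors deposited log2 values per gene and sample, which the file name calls voom-normalized: log2 CPM with 0.5 reads added and a scaled library size. The tools named are featureCounts 1.6.0, HISAT2 2.1.0 and fastp 0.19.4 and the build Rnor_6.0, per the submitters' processing notes. Their roles and settings, the annotation version and the strand of counting are not given in the sources used here. Whole reads were worked back from the values (100% within 0.01 of a whole number). These give the depth.

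Genes were tested on the deposited log2 values with limma 3.58.1 (R 4.3.3): group as the term, moderated statistics with a mean-variance trend, two-sided, Benjamini-Hochberg adjustment over all 16551 genes and a threshold of 0.05. The test was checked on simulated reads in which few genes changed, as many up as down. That check does not bear on the choice of scaling. CPM values are 2 to the power of the deposited values. Levels of single genes were not compared with each other, for lack of transcript lengths. Alternatives were other scalings, 2 reads added, filters on low genes, a single variance prior, voom weights, a replicate block and each sample left out.

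The members, lists and tests were chosen with earlier results of these data known. Named are core and catalytic subunits, isoform sets, members that went against most of their complex, up to 4 genes of each complex with the smallest p in each direction, and up to 3 of each other list. Subunits with few reads and the markers named were chosen after values were seen. The within-sample ratios and the muscle markers were chosen after values were seen. Promoter sequences and gene names are from RefSeq (GRCr8), matched by symbol or synonym. One member is counted but not reported by name here. Figures were drawn with matplotlib 3.10.9.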

Additional observations from a re-analysis of the deposited data

How the results depend on the processing

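With plain library totals 10 subunits were lower and 21 higher, and their median log2 fold change was 0.067. By complex the lower and higher counts were then 3 and 11 (I), 1 and 1 (II), 2 and 2 (III), 3 and 4 (IV) and 1 and 3 (V), with medians of 0.10, 0.019, 0.049, 0.070 and 0.014 for complexes I to V. Of the 79 subunits, 27 below 0 by the deposited scaling stood above 0 there, 4 of which had passed as lower (Ndufv1, Ndufb8, Cox6c and Atp5b). Among the genes recomputed by name those that turned were Ndufv1 0.0032, Sdhc 0.035, Sdhd 0.0034, Uqcrfs1 0.086, Cox6a1 0.072, Atp5a1 0.076, Atp5b 0.0019, Atp5g1 0.010, Atp5g2 0.088, Gabpa 0.056 and Tfam 0.078. Only the scaling was changed in this setting. After quantile normalization 6 of complex I and 3 of complex V were lower and 1 of complex IV higher, the complex IV median was -0.023, and Uqcrfs1, Atp5a1 and Atp5b stood at 0.015, 0.029 and 0.035. With a single variance prior 16 subunits were lower and 3 higher (5 lower and 1 higher in complex I, 2 lower and 0 higher in complex V). With the median gene made equal in all samples, a setting chosen after seeing the data, 3 were higher (1 in complex I, 0 in V), 2 of complex II and 5 of complex III were lower, and the medians were -0.070 for all, -0.033 for complex I and -0.067 for complex IV. Without genes under a mean of 0, or without the lowest 25% of genes, fewer members were measured, the median was -0.067 and 1 gene of complex IV was higher. With voom weights 0 genes of complex V were higher. With a replicate block 22 subunits were lower and 4 higher, and 0 of complex V were higher. The labels do not say that a number pairs samples, the correlations of same-numbered deviations from the group means were -0.092, -0.043 and 0.026, and no high-glucose sample correlated best with the control of its own number. Leaving out each sample in turn gave 20 to 25 lower and 3 to 5 higher subunits and a median of -0.067 to -0.049. The ranges of lower and higher counts were 5 to 9 and 0 to 2 for complex I, 1 to 2 and 1 to 1 for II, 3 to 4 and 1 to 1 for III, 5 to 7 and 0 to 1 for IV and 4 to 7 and 0 to 1 for V. Medians ran from -0.052 to -0.013 for complex I, -0.12 to -0.061 for II, -0.079 to -0.055 for III, -0.065 to -0.033 for IV and -0.12 to -0.058 for V. Complex I had 5 lower without high glucose 3, and complex II 2 without control 2. Subunits that were higher numbered 3 without high glucose 2, control 1 or control 2. With a sample left out Ndufs8 ran from -0.029 to 0.11, Uqcrfs1 from -0.079 to 0.039, Atp5g2 from -0.055 to 0.011 and Tfam from -0.079 to 0.026, the first of these below 0 without high glucose 1 or control 1 and the others above 0 without high glucose 1, control 3 and high glucose 3, in that order. In total 8354 genes passed, against 7369 to 8779 over the settings. With 2 reads added 26 subunits were lower and 5 higher. Where no cause is given, the cause was not tested. Depth limits the 6 subunits with fewer than 60 reads per sample.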
